A study of Nothobranchius furzeri with 12 samples.

Results

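Later adulthood in the turquoise killifish was described by setting 3 fish of 6.0 months against 3 fish of 3.0 months. These are 6 of the 12 samples of the series, chosen by the age on their labels. The tissue was retina with the retinal pigment epithelium (RPE) still attached, the sheet of pigmented cells that feeds and renews the photoreceptors. RNA of each fish was sequenced as a library of its own. The 3 fish of 1.5 months entered the fit to estimate the spread between fish, and the means compared do not include them. They also entered the filter on low counts and the scaling of the libraries. The 3 fish of 4.5 months were left out of the fit.

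All 6 fish of the comparison, at 6.0 months and at 3.0 months, were untreated males of the genotype "GRZ backcross mutant line". GRZ is a short-lived laboratory strain of Nothobranchius furzeri. The mutated gene, and whether a given fish carried the mutation, are not given in the labels, so a difference in carriers and a difference in age cannot be told apart. Cornea, lens, iris, sclera and choroid were cut away before RNA extraction. The time of day of collection is not given either. The labels call the 3 fish of an age biological replicates.

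In the vertebrate retina, rods and cones turn light into a signal through a cascade of opsin, transducin, phosphodiesterase and a cyclic nucleotide gated channel, held in a stack of membrane discs called the outer segment. Mueller glia span the retina, recycle glutamate and answer damage with the programme called gliosis. Myelin wraps the axons of ganglion cells, and in many fishes it already does so inside the eye, while microglia are the resident macrophages that clear debris. Photoreceptors are among the most energy-hungry cells known, fed by glucose that passes through the RPE.

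Library totals were 41.15, 46.91 and 46.49 M counts at 6.0 months, against 34.44, 40.95 and 40.38 M counts at 3.0 months. Levels below are CPM, a gene's counts scaled to the TMM-adjusted size of its library, given for replicates 1, 2 and 3 in that order, and they are not corrected for gene length. Markers of RPE, rods and cones were present in every fish. The summed level of 19 lens markers was 18549, 45.9 and 49.1 CPM at 6.0 months, against 55.9, 45.5 and 47.8 CPM at 3.0 months. Replicate 1 of 6.0 months therefore held lens RNA, with the lens crystallin cryaa at 852 CPM there and under 1 CPM in the other 5 fish. At 1.5 months, the age used for the spread, the lens markers summed to 92.5, 955 and 49.7 CPM. Markers of cornea and surface epithelium summed to 5499, 310 and 401 CPM at that age. Cytosolic ribosomal protein genes summed to 48700, 25757 and 42020 CPM at 6.0 months, against 44431, 18987 and 40763 CPM at 3.0 months. At 6.0 and 3.0 months, replicate 2 was the lowest fish of its age in these genes, in RPE and visual cycle markers and in melanin genes. The RPE and visual cycle markers summed to 9101 CPM at 6.0 months and 8073 CPM at 3.0 months there, against 16375 to 18432 CPM in the other 4 fish. In these lists, replicate 2 of 6.0 months thus resembled replicate 2 of 3.0 months. At 1.5 months replicate 2 was not the lowest, with 51974 CPM in ribosomal protein genes against 41989 CPM in replicate 1. Its RPE and visual cycle markers summed to 17077 CPM, against 15032 CPM in replicate 1.

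**Figure D1:**
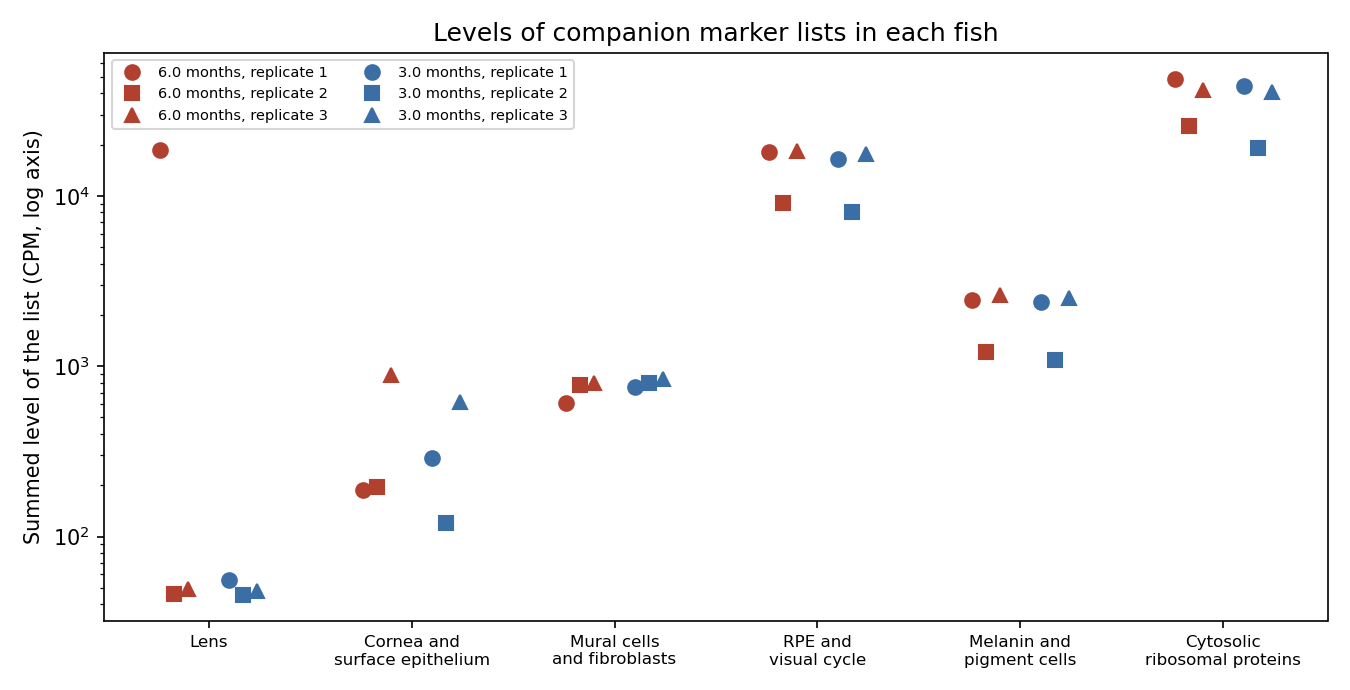
Summed level of 6 marker lists in each fish (CPM, log axis), with 6.0 months in red left of 3.0 months in blue and 1 point per fish. Lens RNA stands out in replicate 1 of 6.0 months (18549 CPM against 45.5 to 55.9 CPM in the other 5 fish), and replicate 2 of each age is low in RPE, melanin and ribosomal protein genes.

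Of 20438 genes tested, none (0%) passed edgeR's quasi-likelihood test at an adjusted p under 0.05, and the smallest adjusted p was 0.143. At an unadjusted p under 0.05, edgeR gave 1827 genes (8.94%), of which 963 were higher (4.71%) and 864 lower (4.23%) at 6.0 months. DESeq2 on the same 9 libraries passed 300 genes (1.47%), 154 higher (0.753%) and 146 lower (0.714%). An edgeR fit of only the 6 libraries with the replicate number as a block is called the paired fit below. It passed 25 of 19935 genes (0.125%), 6 higher (0.0301%) and 19 lower (0.0953%). Of the 6 higher, 3 were at 0 in every fish of 3.0 months and are not read as tested. That pairing of different fish was read from these same counts, and the fit was added after the data were seen. P-values of the paired fit, and the order of fish within numbered pairs, are therefore description and not separate support. With the block in the fit of the 9 libraries, edgeR passed 0 genes. Without replicate 2 of 3.0 months, edgeR passed 3 genes, all lower, namely dpep1, a membrane dipeptidase, and 2 entries with no name, and without replicate 2 of both ages it passed 12, of which 11 were lower.

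In 2781 genes (13.6%) the 3 older and the 3 younger fish did not overlap, against the 10% that chance gives on average for 3 against 3. Genes of a library vary together, so the share can lie away from 10% without an effect of age, and the difference was not tested. All 3 fish of 6.0 months stood above all 3 of 3.0 months in 1477 genes (7.23%) and below them in 1304 genes (6.38%). An exact permutation test of 3 against 3 cannot give a p under 0.1. In what follows, "apart" means that older and younger fish did not overlap. Any gene said to pass does so in DESeq2 or in the paired fit, as stated, since none passed the edgeR test. In bulk tissue, fewer cells of a type and less RNA per cell cannot be told apart.

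**Figure D2:**
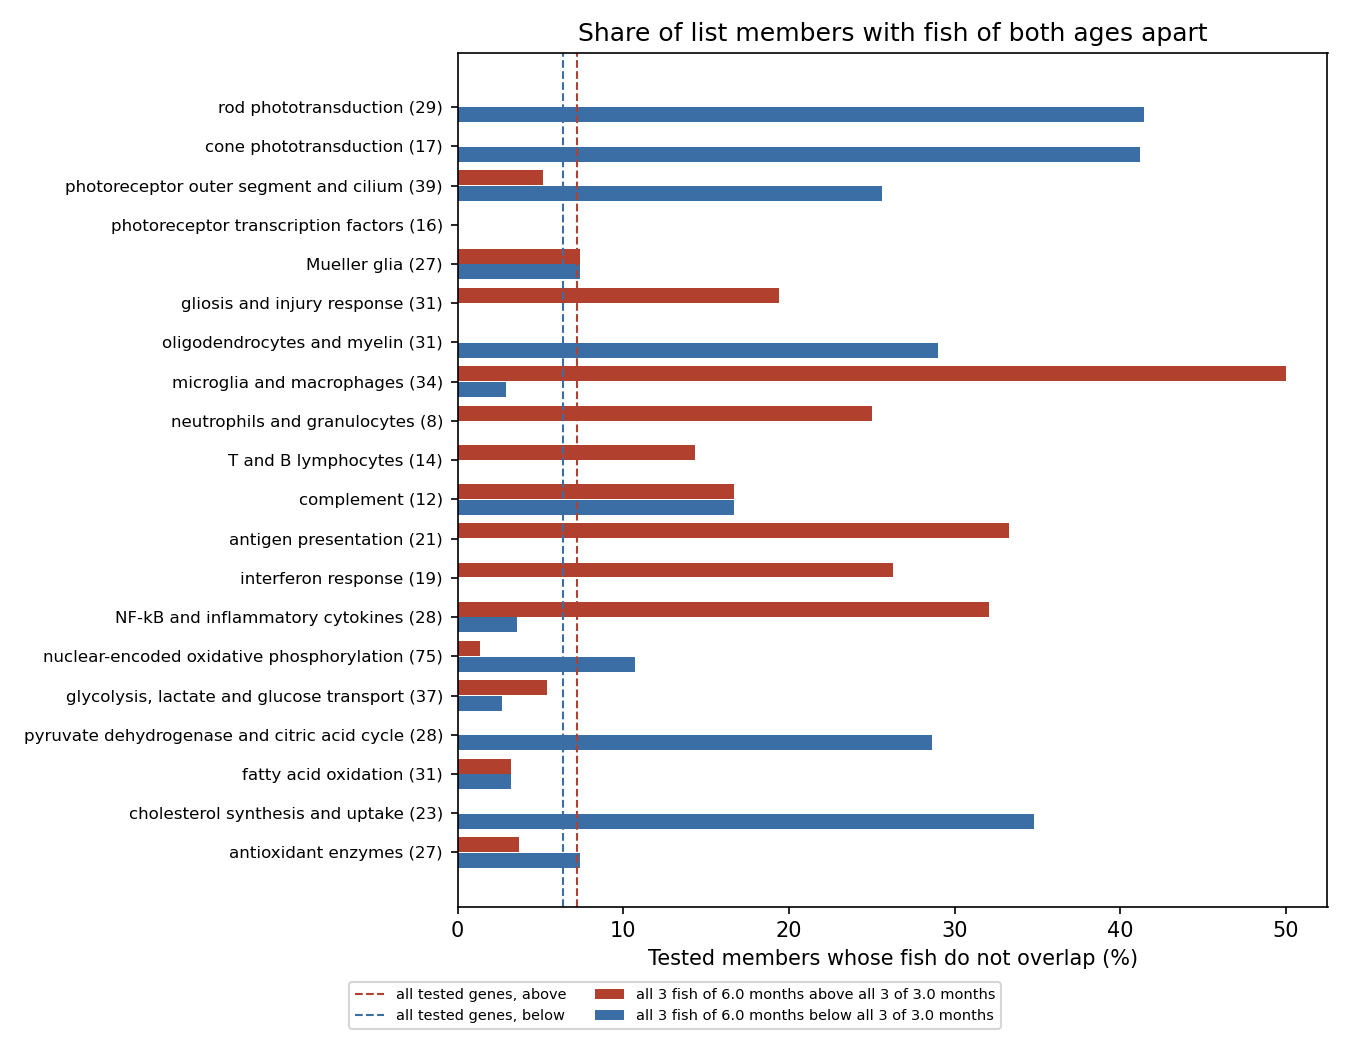
Percent of the tested members of each list (number in brackets) whose 3 fish of 6.0 months lay all above (red) or all below (blue) the 3 fish of 3.0 months. Dashed lines mark the shares over all tested genes, 7.23% above and 6.38% below; microglia and macrophages reach 50% above, and the rod and cone lists 41.4% and 41.2% below.

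Photoreceptor genes were mostly lower at 6.0 months. In the rod phototransduction list, 27 of 29 genes had a log2 change under 0 and the median was -0.59, against 0.00 over all tested genes. The fish were apart in 12 of these 29 (41.4%, against 6.38% over all tested genes), all lower at 6.0 months. DESeq2 passed 6 as lower, against 0.714% of all tested genes. The rod transducin alpha subunit gnat1, which carries the signal from rhodopsin, had 1625, 1358 and 2415 CPM at 6.0 months, against 3221, 3723 and 3242 CPM at 3.0 months. Every fish of 6.0 months was below every fish of 3.0 months, and the log2 change was -0.92 ± 0.23 (SE; edgeR adjusted p = 0.326, DESeq2 adjusted p = 0.00528). Its beta subunit gnb1 was also apart, at a log2 change of -0.72 ± 0.21 (DESeq2 adjusted p = 0.0334).

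Further down the cascade, pde6g, the inhibitory subunit of the rod phosphodiesterase, averaged 769 ± 90.7 CPM at 6.0 months and 1206 ± 87.9 CPM at 3.0 months (SD, n = 3 each). Its log2 change was -0.65 ± 0.15, with a DESeq2 adjusted p of 0.000943. The channel subunits cnga1 and cngb1a were apart and lower, each at a log2 change of -0.69, without passing DESeq2. The guanylate cyclase activators, calcium sensors that restore the dark state, included the largest change of the rod list. Of these, guca1a had 175, 257 and 413 CPM at 6.0 months, against 670, 943 and 573 CPM at 3.0 months. The lowest of the younger fish stood above the highest of the older ones, and the log2 change was -1.37 ± 0.40 (edgeR adjusted p = 0.373, DESeq2 adjusted p = 0.0162). Its relative guca1b had a log2 change of -0.75 ± 0.18 (DESeq2 adjusted p = 0.00951).

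Phosducin binds the transducin beta-gamma subunits, and its gene pdca had 429, 314 and 541 CPM at 6.0 months, against 827, 566 and 765 CPM at 3.0 months, a narrow separation at a log2 change of -0.75 ± 0.22 (DESeq2 adjusted p = 0.0372). The entry named rho stayed near 1 CPM in all 6 fish and overlapped, so it is not the abundant rod opsin, which was not analysed here. The entries opn1lw, sag and prph2 were not found under those names.

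Cone genes followed the same direction with a smaller median. Of 17 genes, 16 had a log2 change under 0 at a median of -0.35. The fish were apart in 7 (41.2%, against 6.38% over all tested genes), all lower at 6.0 months. DESeq2 passed 5 as lower, against 0.714% of all tested genes. The short-wavelength cone opsin opn1sw had 236, 214 and 222 CPM at 6.0 months, against 406, 456 and 332 CPM at 3.0 months. The 3 older fish lay close together and below the younger ones, at a log2 change of -0.83 ± 0.16 (edgeR adjusted p = 0.298, DESeq2 adjusted p = 6.81e-05). Its mean at 1.5 months was 767 CPM, above both. The related opsin opn1sw2 had 489, 692 and 443 CPM at 6.0 months, against 592, 660 and 509 CPM at 3.0 months, and its fish overlapped.

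The cone opsin kinase grk7 had 505, 366 and 393 CPM at 6.0 months, against 823, 545 and 735 CPM at 3.0 months. Its copy grk7b, which was far less abundant, had 2.91, 3.23 and 3.77 CPM at 6.0 months, against 6.41, 7.28 and 5.70 CPM at 3.0 months. Both copies were apart, with log2 changes of -0.73 ± 0.20 and -0.97 ± 0.21 (DESeq2 adjusted p = 0.0276 and 0.00325). The cyclase activator guca1d averaged 97.8 ± 36.2 CPM at 6.0 months and 204 ± 30.9 CPM at 3.0 months (SD, n = 3 each), at a log2 change of -1.06 ± 0.28 (DESeq2 adjusted p = 0.0162). The cone phosphodiesterase pde6c passed DESeq2 as well, at -0.70 ± 0.20 (adjusted p = 0.0364). Cone transducin gnat2 and cone arrestin arr3 were apart at log2 changes of -0.40 ± 0.16 and -0.28 ± 0.15, and neither passed in any fit.

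In the outer segment and cilium list, 34 of 39 genes were under 0 at a median of -0.27. The fish were apart in 10 lower genes (25.6%) and 2 higher ones (5.13%), against 6.38% and 7.23% over all tested genes. The disc rim gene rom1a had 427, 534 and 613 CPM at 6.0 months, against 934, 1213 and 882 CPM at 3.0 months. Every older fish was below every younger one, at a log2 change of -0.94 ± 0.21 (edgeR adjusted p = 0.314, DESeq2 adjusted p = 0.00244). A second entry, rom1, gave near-equal levels and a log2 change of -0.72 ± 0.21, and how reads shared by such copies were assigned is not given in the sources used here. The axonemal gene rp1l1 was apart at -1.20 ± 0.40 (DESeq2 adjusted p = 0.0527), and ttc8, a subunit of the cilium transport complex BBSome, passed DESeq2 at -0.47 ± 0.12 (adjusted p = 0.0451).

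Photoreceptor transcription factors differed less. Their 16 genes had a median of -0.11, 15 were under 0, and no gene was apart or passed in any fit. The share of genes apart was thus 41.4% for rod and 41.2% for cone phototransduction, against 0% for the factors, and the difference between these lists was not tested. Without replicate 2 of both ages, the rod median was -0.46 and the cone median -0.32.

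**Figure D3:**
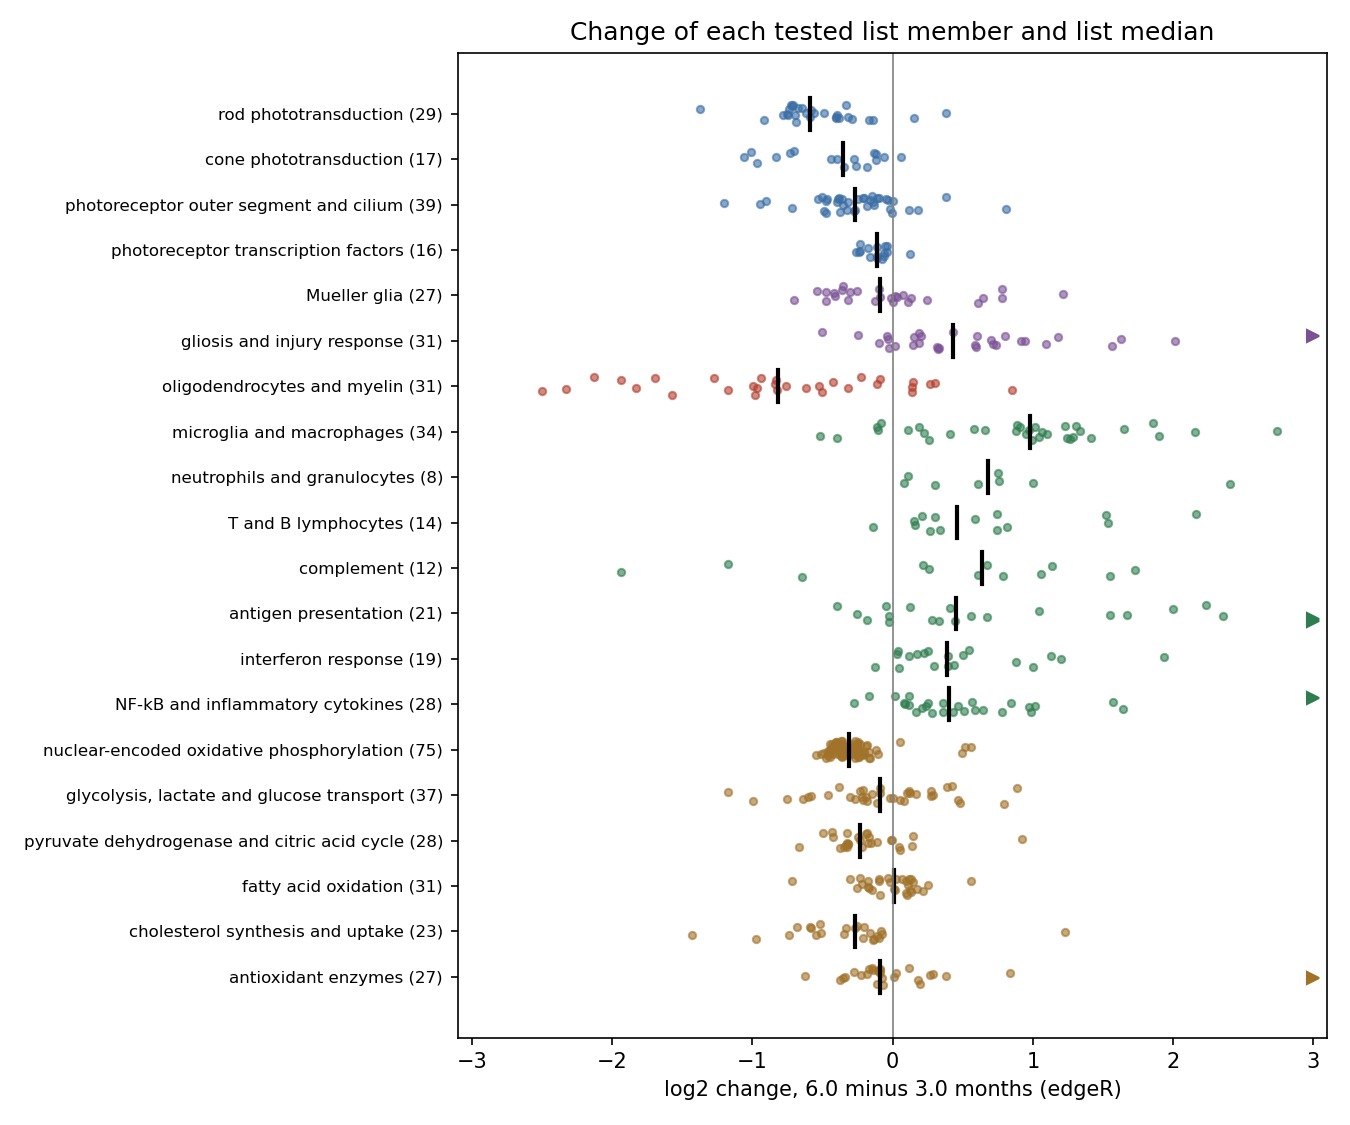
The log2 change of each tested gene (points) and the median (black bar) of 20 lists, 6.0 minus 3.0 months from edgeR, with the number of genes in brackets. Arrowheads at the right edge stand for genes beyond 3: steap4, psmb9a, cd83, tnfaip2 and hmox1. Myelin lies furthest to the left (median -0.82) and microglia and macrophages furthest to the right (median 0.98).

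Mueller glia markers did not move one way. Of 27 genes, 12 were above 0 and 15 below, the median was -0.09, and the fish were apart in 2 genes in each direction. That is 7.41% each way, near the shares over all tested genes (7.23% higher and 6.38% lower). The stem cell and glial factor sox2 had 83.7, 69.0 and 60.9 CPM at 6.0 months, against 49.6, 29.6 and 57.8 CPM at 3.0 months. The gap junction gene gja1b (connexin 43) had 183, 205 and 134 CPM at 6.0 months, against 124, 90.4 and 127 CPM at 3.0 months. Both were higher in each fish of 6.0 months, at log2 changes of 0.64 ± 0.25 and 0.61 ± 0.20, and neither passed (edgeR adjusted p = 0.493 and 0.41). The glial glutamate transporter slc1a3 was apart and lower at -0.48 ± 0.19, and so was the potassium channel kcnj10 at -0.35. Glutamine synthetase glula overlapped, with 1973, 2703 and 1838 CPM at 6.0 months, against 2893, 2556 and 2596 CPM at 3.0 months.

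Gliosis and injury genes were mostly higher at 6.0 months, with 25 of 31 above 0 at a median of 0.43. The fish were apart in 6 (19.4%, against 7.23% over all tested genes), all higher. DESeq2 passed 3 as higher, against 0.753% of all tested genes. The stress-induced transcription factor atf3 had 25.2, 42.4 and 12.8 CPM at 6.0 months, against 10.2, 7.96 and 7.94 CPM at 3.0 months. The neurotrophic cytokine cntf had 14.4, 28.4 and 7.88 CPM at 6.0 months, against 6.67, 4.79 and 5.72 CPM at 3.0 months. For both, replicate 2 of 6.0 months was the highest fish and replicate 3 came close to the younger fish. Their log2 changes were 1.62 ± 0.36 and 1.56 ± 0.39 (DESeq2 adjusted p = 0.00118 and 0.00822; edgeR adjusted p = 0.314 and 0.343).

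The third gene was steap4, a metalloreductase induced by inflammation, with 6.94, 76.4 and 1.36 CPM at 6.0 months, against 1.05, 1.03 and 0.690 CPM at 3.0 months. All 3 older fish were above the younger ones, by a wide margin in replicate 2, and the log2 change was 4.93 ± 1.59, or 2.16 without replicate 2 of 6.0 months. The 2 intermediate filament genes of reactive glia differed from each other. Levels of gfap were 157, 71.6 and 144 CPM at 6.0 months, against 204, 119 and 205 CPM at 3.0 months. Those of vim were 385, 250 and 169 CPM at 6.0 months, against 185, 131 and 178 CPM at 3.0 months. The fish overlapped in both, at log2 changes of -0.50 ± 0.30 and 0.70 ± 0.27. Without replicate 2 of 6.0 months the median of the gliosis list was 0.15, and without replicate 2 of both ages 0.14.

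Myelin genes were mostly lower at 6.0 months. Of 31 genes, 25 were under 0 at a median of -0.82. The fish were apart in 9 (29.0%, against 6.38% over all tested genes), all lower. DESeq2 passed 5 genes and the paired fit 4, all lower, against 0.714% and 0.0953% of all genes each fit tested. The summed level of the list was 569, 437 and 704 CPM at 6.0 months, against 933, 565 and 1229 CPM at 3.0 months. The sums overlapped between the ages, and in each numbered pair the older fish was lower.

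Proteolipid protein is a main protein of compact myelin, and its gene plp1b had 15.997, 8.01 and 23.7 CPM at 6.0 months, against 57.0, 25.6 and 71.7 CPM at 3.0 months. Replicate 2 was the lowest fish and replicate 3 the highest at each age, and in each numbered pair the older fish was lower. The log2 change was -1.69 ± 0.48 (edgeR adjusted p = 0.375). The paired fit, whose pairs were chosen from these same counts, gave an adjusted p of 0.00313. Myelin basic protein, mbpb, had 4.13, 1.59 and 7.43 CPM at 6.0 months, against 14.7, 8.52 and 51.2 CPM at 3.0 months, the largest change of the list at -2.50 ± 0.84 (paired fit adjusted p = 0.0101). The entry cd59, a surface inhibitor of complement that myelinating glia of zebrafish carry, had 8.65, 5.13 and 12.8 CPM at 6.0 months, against 36.1, 15.2 and 50.7 CPM at 3.0 months (log2 change -1.94 ± 0.58, paired fit adjusted p = 0.00628). These 3 genes share the same order of fish within each age.

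Myelin protein zero, mpz, the adhesion protein of fish myelin, had 5.84, 9.03 and 9.88 CPM at 6.0 months, against 27.5, 19.9 and 40.6 CPM at 3.0 months. At -1.83 ± 0.49 it passed DESeq2 (adjusted p = 0.00277), and its paired adjusted p was 0.0587. Its mean at 1.5 months was 81.2 CPM, higher than at either later age. Enzymes that make myelin lipids were also apart. Galactosylceramide synthase, ugt8, had 7.84, 6.94 and 12.1 CPM at 6.0 months, against 22.7, 15.1 and 27.3 CPM at 3.0 months, at -1.28 ± 0.26. It passed DESeq2 (adjusted p = 0.000943) and did not pass edgeR's test (adjusted p = 0.307). Its adjusted p of 0.0386 in the paired fit, whose pairs were chosen from these same counts, is not separate support.

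The fatty acid hydroxylase fa2h passed DESeq2 at -1.57 ± 0.38 (adjusted p = 0.00693), as did the sulfotransferase gal3st1 at -0.84 ± 0.21 (adjusted p = 0.0224). The myelin-associated glycoprotein mag passed DESeq2 (adjusted p = 0.0307) although its fish overlapped, with 67.4, 55.7 and 88.0 CPM at 6.0 months, against 157, 86.3 and 162 CPM at 3.0 months. The growth factor receptor erbb3b and the tetraspanin tspan2a were apart without passing, at -0.99 and -0.43. Without replicate 2 of both ages the median of the list was -0.91. The amount of optic nerve left on each dissected eye is not given, and its part in these values was not tested.

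Immune genes were mostly higher at 6.0 months. Of 34 microglia and macrophage genes, 29 were above 0 at a median of 0.98. DESeq2 passed 8, all higher, against 0.753% of all tested genes. The fish were apart in 17 higher genes (50%) and 1 lower one (2.94%), against 7.23% and 6.38% over all tested genes. The summed level of the list was 473, 579 and 433 CPM at 6.0 months, against 392, 253 and 380 CPM at 3.0 months. All 3 older fish were above all 3 younger ones, and the 2 extremes were replicate 2 of 6.0 months and replicate 2 of 3.0 months, the libraries low in RPE and ribosomal protein RNA. Without both of these libraries the median of the list was 0.40. Endothelial markers summed to 276, 503 and 269 CPM at 6.0 months, against 252, 296 and 289 CPM at 3.0 months, highest in that same older fish, and their part in the result was not tested.

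The mannose receptor mrc1b had 30.7, 67.9 and 20.4 CPM at 6.0 months, against 12.6, 8.97 and 10.5 CPM at 3.0 months. The lowest older fish was above the highest younger one, and the log2 change was 1.90 ± 0.39 (edgeR adjusted p = 0.307, DESeq2 adjusted p = 0.000157). The macrophage pore protein mpeg1.1 had 4.47, 9.16 and 1.79 CPM at 6.0 months, against 0.585, 0.305 and 1.41 CPM at 3.0 months, the largest change of the list at 2.74 ± 0.72 (DESeq2 adjusted p = 0.00612). The amino acid transporter slc7a7, which zebrafish microglia need to form, had 5.76, 14.1 and 3.67 CPM at 6.0 months, against 2.05, 1.76 and 2.69 CPM at 3.0 months (1.86 ± 0.54, DESeq2 adjusted p = 0.0262). Replicate 2 of 6.0 months was the highest fish in all 3 of these genes.

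The pan-leukocyte phosphatase ptprc (CD45) was less uneven, with 7.82, 12.7 and 7.47 CPM at 6.0 months, against 3.83, 2.93 and 4.86 CPM at 3.0 months (1.27 ± 0.33, DESeq2 adjusted p = 0.0245). The lysosomal marker cd68 and the actin regulators coro1a, nckap1l and was also passed DESeq2, at log2 changes of 0.99 to 1.31. The receptor csf1r, which microglia require, had 12.4, 16.6 and 13.3 CPM at 6.0 months, against 11.1, 7.02 and 10.3 CPM at 3.0 months, and was apart at 0.58 ± 0.20 without passing. Its copy csf1ra overlapped at 0.88 ± 0.38. The purinergic receptor p2ry12 of surveying microglia was apart at 1.41, with a DESeq2 adjusted p of 0.0788. Of the 5 genes of this list under 0, the 1 that was apart was il34, a ligand of the csf1r receptor, at -0.52.

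Other immune lists also had medians above 0, with few genes passing, while the complement list was mixed. All 8 neutrophil and granulocyte genes were above 0 at a median of 0.68. The fish were apart in 2 (25.0%, against 7.23% over all tested genes), both higher. The membrane protease mmp25b passed DESeq2 with 2.71, 7.52 and 1.61 CPM at 6.0 months, against 0.878, 0.423 and 0.937 CPM at 3.0 months (adjusted p = 0.00612). The granule proteoglycan srgn was apart at 0.75 ± 0.31. Of 14 lymphocyte genes, 13 were above 0 at a median of 0.46, and 2 were apart and higher (14.3%, against 7.23% over all tested genes). These were the T cell factor tbx21 at 0.27 ± 0.15 and the T cell kinase itk at under 1 CPM. The lymphocyte list rests on low levels, as 6 of the 14 genes reached 1 CPM in a fish of 6.0 months and 5 in a fish of 3.0 months. No lymphocyte gene passed in any fit.

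In the complement list, 9 of 12 genes were above 0 at a median of 0.64, with 2 apart in each direction. That is 16.7% each way, against 7.23% higher and 6.38% lower over all tested genes. The complement component c4b had 3.30, 11.4 and 2.69 CPM at 6.0 months, against 2.58, 2.39 and 0.986 CPM at 3.0 months, so the separation of 1.55 ± 0.58 was narrow outside replicate 2. The central component c3 stayed under 2 CPM and overlapped. The inhibitor cd59, described with myelin, and the terminal component c8b were the 2 genes apart and lower.

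Antigen presentation genes had a median of 0.45, and 15 of 21 were above 0. The fish were apart in 7 (33.3%, against 7.23% over all tested genes), all higher. The proteasome activator psme1 had 4.47, 8.32 and 2.95 CPM at 6.0 months, against 1.81, 1.53 and 1.603 CPM at 3.0 months (1.67 ± 0.50, DESeq2 adjusted p = 0.0496). The peptide transporter tap1 had 16.7, 24.4 and 19.4 CPM at 6.0 months, against 10.7, 12.8 and 14.5 CPM at 3.0 months (0.67 ± 0.19, DESeq2 adjusted p = 0.0816). All 3 older fish were above the younger ones in both genes, with replicate 2 highest. The class II invariant chain cd74 was apart only narrowly, with 31.9, 30.9 and 29.9 CPM at 6.0 months, against 29.8, 10.7 and 29.3 CPM at 3.0 months, and its log2 change of 0.41 ± 0.56 rests on replicate 2 of 3.0 months. The median of the list was 0.26 without replicate 2 of 6.0 months and 0.09 without replicate 2 of both ages.

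Interferon response genes were above 0 in 18 of 19 cases at a median of 0.39, and none passed. The fish were apart in 5 (26.3%, against 7.23% over all tested genes), all of them higher. The interferon regulator irf7 had 7.62, 10.8 and 7.70 CPM at 6.0 months, against 6.18, 5.68 and 7.42 CPM at 3.0 months. For parp9, which acts in interferon signalling, the levels were 11.5, 14.2 and 14.4 CPM at 6.0 months, against 10.3, 10.02 and 10.1 CPM at 3.0 months. Changes were small, at 0.44 ± 0.19 and 0.40 ± 0.14, and without replicate 2 of 6.0 months the median of the list was 0.09.

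Among NF-kB and inflammatory genes, 26 of 28 were above 0 at a median of 0.40. The fish were apart in 9 higher genes (32.1%) and 1 lower one (3.57%), against 7.23% and 6.38% over all tested genes. The NF-kB subunit nfkb2 had 22.2, 41.2 and 19.2 CPM at 6.0 months, against 18.7, 13.2 and 9.07 CPM at 3.0 months (1.01 ± 0.32). The subunit rel had 12.8, 10.3 and 9.88 CPM at 6.0 months, against 7.46, 6.27 and 8.21 CPM at 3.0 months (0.59 ± 0.16), and here replicate 2 did not lead. The receptor tnfrsf1a was apart at 0.85 ± 0.24. DESeq2 passed none of the 28. The paired fit passed ptgs2, the inducible cyclooxygenase that makes prostaglandins, with 82.8, 200.2 and 59.7 CPM at 6.0 months, against 43.1, 96.0 and 34.001 CPM at 3.0 months (adjusted p = 0.0369). Its fish overlapped between the ages, and each older fish was higher than the younger fish of its own number. These pairs were chosen from the same counts.

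**Figure D4:**
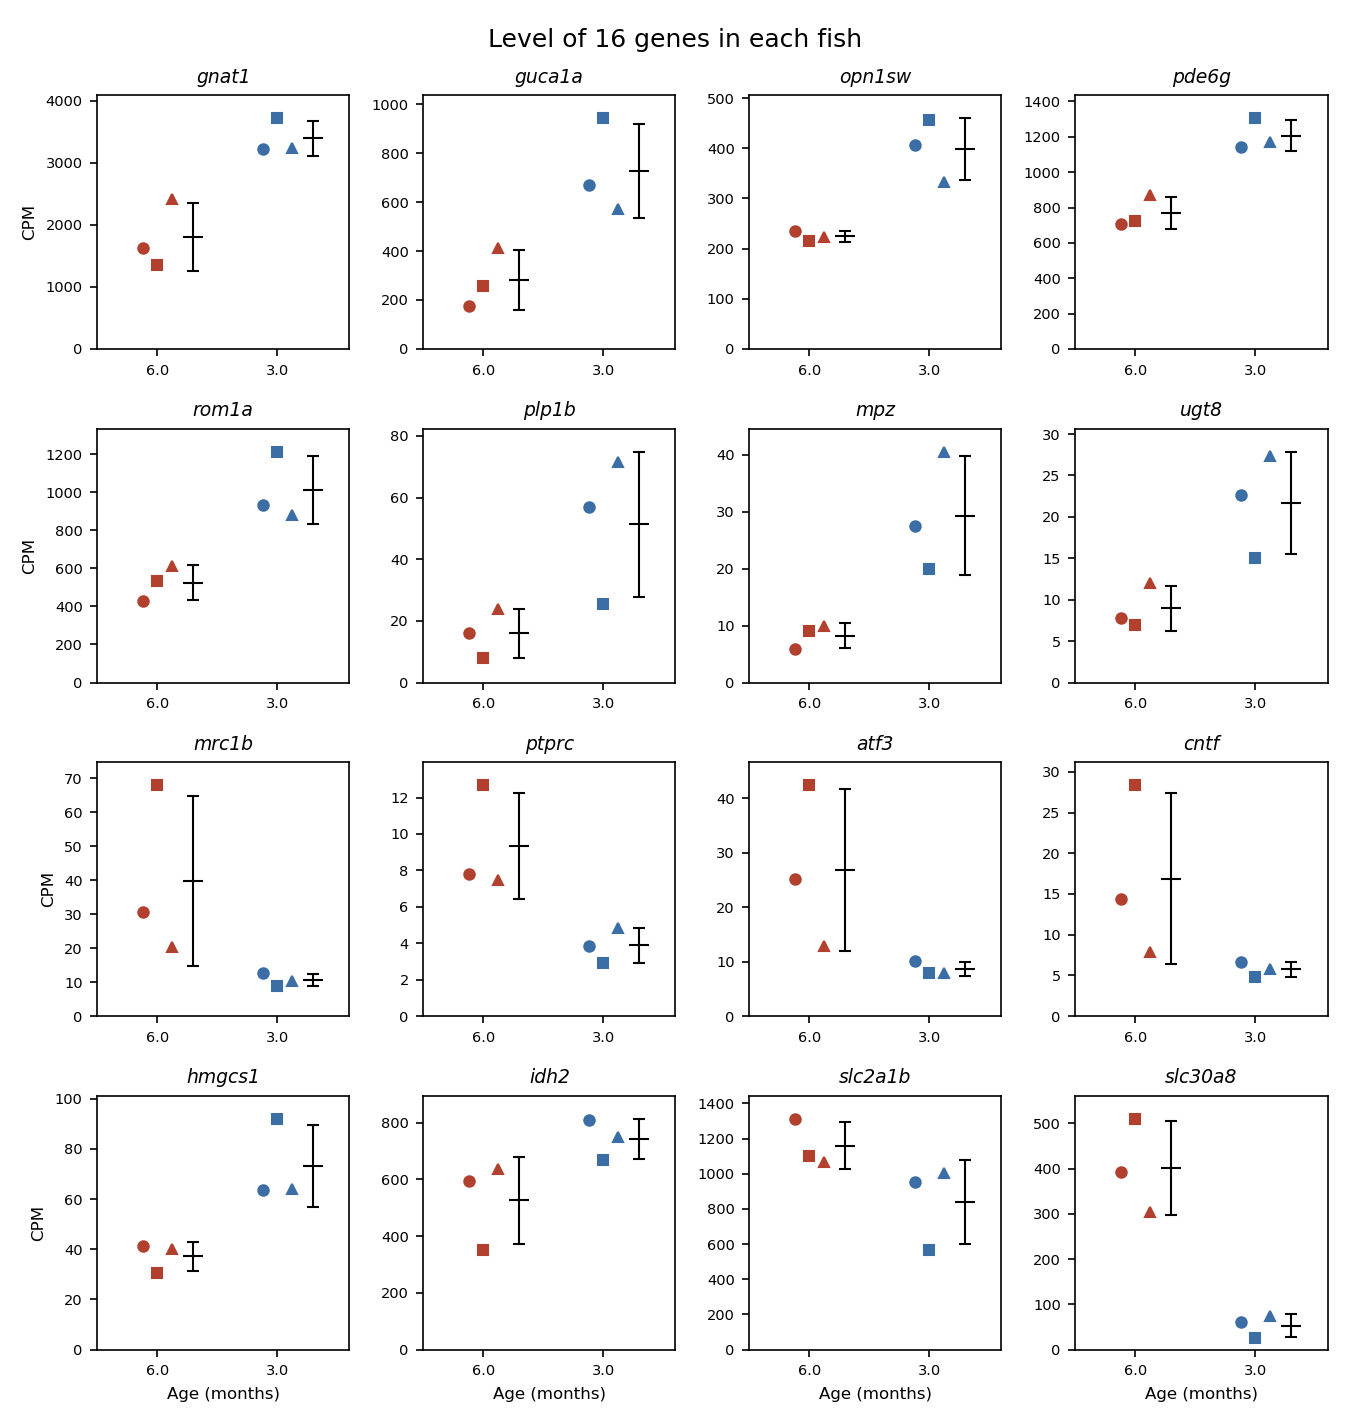
Levels of 16 genes in each fish (CPM, linear axes from 0), with 6.0 months in red left of 3.0 months in blue; circles, squares and triangles are replicates 1, 2 and 3, and bars show mean ± SD (n = 3). The genes were picked with their values known, so it is not a result that the ages are apart in all 16. Over all tested genes, 13.6% are apart. For mrc1b, ptprc, atf3 and cntf the highest fish is replicate 2 of 6.0 months, while opn1sw shows 3 older fish close together.

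Energy genes differed in small steps. Of 75 nuclear-encoded oxidative phosphorylation genes, 71 were under 0, at a median of -0.31, and none passed in any fit. The fish were apart in 8 lower genes (10.7%) and 1 higher one (1.33%), against 6.38% and 7.23% over all tested genes. The summed level of the list was 8823, 5714 and 9087 CPM at 6.0 months, against 11153, 7727 and 11087 CPM at 3.0 months. Replicate 2 was the lowest fish of each age, so the sums overlapped between the ages, while in each numbered pair the older fish was lower. The median was -0.14 without replicate 2 of 6.0 months and -0.49 without replicate 2 of 3.0 months. The complex III core gene uqcrc1 had 196, 153 and 201 CPM at 6.0 months, against 262, 249 and 247 CPM at 3.0 months (-0.46 ± 0.15, edgeR adjusted p = 0.406). The succinate dehydrogenase subunit sdhb of complex II had 119, 90.7 and 125 CPM at 6.0 months, against 156, 134 and 168 CPM at 3.0 months. Replicate 2 was the lowest of the older fish in both genes. Complex I was represented among the genes apart by ndufv2 at -0.42 ± 0.15, and ATP synthase by atp5b at -0.36.

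Pyruvate dehydrogenase and citric acid cycle genes were under 0 in 23 of 28 cases at a median of -0.23. The fish were apart in 8 (28.6%, against 6.38% over all tested genes), all lower. The mitochondrial isocitrate dehydrogenase idh2 had 593, 351 and 636 CPM at 6.0 months, against 809, 667 and 751 CPM at 3.0 months. The malate dehydrogenase mdh2 had 376, 244 and 348 CPM at 6.0 months, against 457, 379 and 468 CPM at 3.0 months. The kinase pdk2a, which restrains pyruvate dehydrogenase, was apart at -0.67 ± 0.22. None of the 28 passed in any fit, and the median was -0.13 without replicate 2 of 6.0 months and -0.15 without replicate 2 of both ages.

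Glycolysis showed no common direction, as 16 of 37 genes were above 0 and 21 below, at a median of -0.09. Only 2 genes were apart and higher (5.41%) and 1 apart and lower (2.7%). Both shares were under those over all tested genes (7.23% and 6.38%). The glucose transporter slc2a1b had 1313, 1098 and 1068 CPM at 6.0 months, against 951, 567 and 1003 CPM at 3.0 months, so that all older fish were higher (0.46 ± 0.21, edgeR adjusted p = 0.575). The first enzyme of the path, hk2, was also apart and higher, at 0.27 ± 0.12. The monocarboxylate transporter slc16a7 was apart and lower at -0.46 ± 0.21. Lactate dehydrogenase ldha was at 264, 239 and 245 CPM at 6.0 months, against 249, 249 and 248 CPM at 3.0 months, a log2 change of 0.01 ± 0.12.

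Fatty acid oxidation had a median of 0.01 over 31 genes, with 1 gene apart in each direction. That is 3.23% each way, under the shares over all tested genes (7.23% higher and 6.38% lower). The acyl-CoA synthetase acsl6, which activates long-chain fatty acids, had 81.8, 96.5 and 105 CPM at 6.0 months, against 144, 190 and 133 CPM at 3.0 months, and passed DESeq2 (-0.72 ± 0.18, adjusted p = 0.0245).

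Cholesterol genes were lower at 6.0 months in 22 of 23 cases by log2 change, at a median of -0.27. The fish were apart in 8 (34.8%, against 6.38% over all tested genes), all lower. The synthase hmgcs1, early in the pathway, had 41.1, 30.6 and 40.1 CPM at 6.0 months, against 63.5, 92.0 and 64.1 CPM at 3.0 months (-0.97 ± 0.24, DESeq2 adjusted p = 0.0124, edgeR adjusted p = 0.326). Squalene epoxidase sqle had 2.98, 0.803 and 3.60 CPM at 6.0 months, against 3.98, 9.81 and 6.07 CPM at 3.0 months (-1.43 ± 0.65). The demethylase cyp51 was apart at -0.68 ± 0.26. Replicate 2 of 3.0 months was the highest fish in all 3 of these genes, and the median of the list was -0.17 without replicate 2 of both ages and -0.42 without replicate 1 of 6.0 months.

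Antioxidant enzymes had no common direction, with 10 of 27 above 0 and 17 below at a median of -0.09. In this list 1 gene was apart and higher (3.7%) and 2 were apart and lower (7.41%). The shares over all tested genes were 7.23% and 6.38%. Heme oxygenase hmox1, which breaks down heme under oxidative stress, had 26, 116 and 17 counts at 6.0 months, against 0 counts in each fish of 3.0 months. Set against a floor of 3 counts over the 3 younger fish, this is at least 43.7-fold higher, though its level at 6.0 months was only 0.635, 2.22 and 0.346 CPM. It was the 1 gene of this list apart and higher. It passed the filter on low counts only through the 6.0 months fish, so no test of it is given. Peroxiredoxin prdx5 had 85.1, 69.1 and 101 CPM at 6.0 months, against 163, 101 and 129 CPM at 3.0 months. Its fish were apart by less than 1 CPM, at -0.62 ± 0.20.

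Other neurons and neighbouring tissue gave the setting for these values. Medians were -0.17 for bipolar cells (18 genes), 0.03 for amacrine cells (19), 0.23 for horizontal cells (7), -0.13 for ganglion cells (22), 0.06 for RPE and visual cycle (24) and 0.14 for mural cells and fibroblasts (26). The retinoid isomerase rpe65 of the RPE overlapped, with 3615, 1974 and 3268 CPM at 6.0 months, against 2965, 1581 and 3368 CPM at 3.0 months. Ribosomal protein genes were above 0 in 79 of 82 cases at a median of 0.15, with none apart. Among 23 immediate early genes, 4 were apart and higher (17.4%, against 7.23% over all tested genes). Among 36 cell cycle genes, 9 were apart and lower (25.0%, against 6.38% over all tested genes), at a median of -0.34.

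In the circadian clock list, 1 of 32 genes was apart and higher (3.12%) and 4 were apart and lower (12.5%). The shares over all tested genes were 7.23% and 6.38%. The light-responsive clock gene per2 had 91.6, 103 and 81.8 CPM at 6.0 months, against 132, 169 and 136 CPM at 3.0 months (-0.66 ± 0.16, DESeq2 adjusted p = 0.0175). The hour at which each fish was collected is not given, and its part in the results was not tested.

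A few genes outside the photoreceptor, glial, myelin, immune and metabolic lists had some of the smallest p-values, and they were chosen after their values were seen. The largest step among them was slc30a8, a zinc transporter of secretory vesicles, with 392, 510 and 303 CPM at 6.0 months, against 60.4, 25.6 and 73.5 CPM at 3.0 months. The lowest older fish stood far above the highest younger one. The log2 change was 2.92 ± 0.43 (edgeR adjusted p = 0.165, DESeq2 adjusted p = 1.62e-11), and its mean at 1.5 months was 42.1 CPM.

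The neuropeptide gene npb had 6.203, 4.78 and 4.602 CPM at 6.0 months, against 13.9, 12.7 and 14.6 CPM at 3.0 months. It was the gene of smallest p (log2 change -1.40 ± 0.19, edgeR adjusted p = 0.143), and it passed DESeq2 (adjusted p = 4.58e-08). Its adjusted p of 0.0419 in the paired fit, whose pairs were chosen from these same counts, is not separate support. The mean of npb at 1.5 months was 6.86 CPM, nearer to that of 6.0 months (5.20 CPM) than of 3.0 months (13.7 CPM). The NMDA receptor subunit grin3ba had 10.2, 7.78 and 7.23 CPM at 6.0 months, against 2.63, 2.91 and 3.25 CPM at 3.0 months (1.51 ± 0.21, DESeq2 adjusted p = 2.21e-07). The amacrine neuropeptide vip had 34.1, 32.6 and 32.8 CPM at 6.0 months, against 60.4, 57.6 and 48.7 CPM at 3.0 months (-0.75 ± 0.11, DESeq2 adjusted p = 1.17e-06). Replicates of either age lay close together in all 3 genes, and replicate 2 of 6.0 months did not lead. Choosing genes by smallest p favours such closeness, so it is not a separate result.

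The transition zone gene tmem138 of the cilium had 40.1, 48.2 and 50.9 CPM at 6.0 months, against 83.6, 105 and 88.0 CPM at 3.0 months. It passed DESeq2 (adjusted p = 1.17e-06) and did not pass edgeR's test (adjusted p = 0.143). Its adjusted p of 0.0369 in the paired fit, whose pairs were chosen from these same counts, is not separate support. The neurofascin copy nfascb, of a family that organises axons at their nodes, had 7.84, 7.06 and 8.10 CPM at 6.0 months, against 14.986, 14.0 and 19.3 CPM at 3.0 months (-1.07 ± 0.17, DESeq2 adjusted p = 4.59e-05). The matrix gene ltbp2 was higher, with 26.1, 27.6 and 22.4 CPM at 6.0 months, against 14.8, 12.8 and 14.0 CPM at 3.0 months (0.87 ± 0.14, DESeq2 adjusted p = 6.03e-05). The most abundant entry of the comparison, LOC107391139, which no table used here names, had 9610, 11213 and 13608 CPM at 6.0 months, against 19477, 22700 and 20724 CPM at 3.0 months (edgeR adjusted p = 0.315, DESeq2 adjusted p = 0.000637).

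Of the 6 genes that passed the paired fit as higher at 6.0 months, 3 were the lens crystallin crygs and 2 entries with no name that were at 0 in every fish of 3.0 months. Levels of crygs were 5290, 1.30 and 1.22 CPM at 6.0 months, highest in replicate 1, the fish that held lens RNA. These 3 entries passed the filter on low counts only through the 6.0 months fish, so their calls are not read as tests.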

How the data were processed

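The authors deposited whole-number counts per gene with no normalization, for 25122 entries and 12 libraries, and the counts were used as deposited. Per the labels, libraries were made with Nextera XT and sequenced paired-end on a NovaSeq S4; the aligner, counting program, genome build and annotation are not given in the sources used here. Even numbers made up 73.16% of counts between 1 and 20, so each mate of a read pair was probably counted separately, which makes totals overstate the precision. A second count table and a normalized table were not used. Locus numbers named 14589 entries, and 5257 of them were matched to a symbol in the RefSeq gene table of NfurGRZ-RIMD1, which may not be the annotation the authors used.

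Counts were fitted in R 4.3.3 with edgeR 4.0.16 (filterByExpr with minimum count 10 and minimum total 15, TMM scaling, robust quasi-likelihood F-test) over the 9 libraries of 1.5, 3.0 and 6.0 months, and the contrast was 6.0 minus 3.0 months. This left 20438 genes with 99.97% of counts; residual degrees of freedom were 6 and the common biological coefficient of variation 0.287. P-values were adjusted over all tested genes by Benjamini-Hochberg, with a threshold of 0.05. DESeq2 1.42.0 was an alternative. Standard errors (SE) of log2 changes were derived from the F statistic (change over √F). The code was tested on simulated counts.

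Gene lists, members, lookup genes and tests were chosen with earlier results of these data known, and no list was tested as a set. List symbols also matched themselves with a final a or b, except rhob, acadsb, cdc20b and rrm2b, which are other genes. Named genes were the 3 members of each list with the largest absolute log2 change among those whose fish did not overlap and that averaged at least 5 CPM at either age, plus lookup genes; others named were chosen after their values were seen. A gene that the rule names is not reported here.

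The labels give the fish of each age the numbers 1 to 3. Deviations from the age means of same-numbered fish of 6.0 and 3.0 months correlated at 0.158, 0.397 and 0.331 across genes. Each fish was highest with its own number, and these numbers were taken to pair the libraries. The pairing was thus chosen from the same counts that the paired fit then used. The source of the pairing is not given in the labels. Between same-numbered fish of 1.5 months and of the 2 later ages, the correlations ran from -0.409 (replicate 2, with 6.0 months) to 0.497 (replicate 3, with 6.0 months). Libraries of an age differed by a chi-square per gene of 20.28 or more, so none was counted as a copy.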

Additional observations from a re-analysis of the deposited data

How the results depend on the processing

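With 3 fish per age and a wide spread between fish, edgeR passed no gene (smallest adjusted p 0.143), nor did it with all 12 libraries, with only 6, with DESeq2's size factors, with no filter on low counts, with minimum count 50 or with the replicate block in the 9-library fit (0 genes). DESeq2 passed 300 genes, 154 higher and 146 lower. The replicate block with only the 6 libraries, added after the data were seen, passed 25, 6 higher and 19 lower, and without replicate 2 of both ages, also added afterwards, 12 passed, 1 higher and 11 lower. Leaving out each library in turn gave 0 to 3 genes, all lower, the 3 without replicate 2 of 3.0 months. Genes whose fish did not overlap then numbered 2157 to 3155 higher and 1919 to 3159 lower. Without replicate 2 of both ages they numbered 4375 higher and 4729 lower. Fewer fish are compared in these fits, which by itself makes such separation more common. The counts also differed with the fish left out, at 2157 higher without replicate 1 of 6.0 months and 3155 without replicate 2 of 3.0 months. At an unadjusted p under 0.05, 1304 to 2205 genes remained by count when each library was left out in turn.

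List medians that moved beyond the spread between fish, or by over 1.5 times, when each library was left out in turn ran from -0.37 to -0.15 for outer segment and cilium, -0.22 to -0.06 for Mueller glia, -1.09 to -0.65 for myelin, 0.31 to 0.88 for neutrophils, 0.27 to 0.67 for lymphocytes, 0.42 to 0.83 for complement, 0.15 to 0.63 for gliosis, 0.26 to 0.63 for antigen presentation, 0.09 to 0.51 for interferon response, -0.49 to -0.14 for oxidative phosphorylation, -0.29 to -0.13 for the citric acid cycle, -0.42 to -0.23 for cholesterol and -0.18 to -0.07 for photoreceptor transcription factors. Medians near 0 also moved by over 1.5 times, from -0.17 to -0.01 for antioxidant enzymes and from -0.05 to 0.05 for fatty acid oxidation. Without replicate 2 of both ages, medians were -0.13 for Mueller glia, 0.40 for microglia and macrophages, 0.26 for neutrophils, 0.33 for lymphocytes, 0.28 for complement and 0.09 for antigen presentation. With the replicate block in the 9-library fit they were 0.60 for lymphocytes and 0.77 for complement. The lymphocyte median was 0.59 with no filter on low counts and 0.21 with minimum count 50. The causes of these moves were not tested.

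Named genes that changed sign in these fits were all near 0, and their log2 changes ran from -0.336 to 0.007 for opn1sw2, from -0.074 to 0.437 for rho, from -0.104 to 0.381 for rpe65, from -0.039 to 0.033 for ldha and from -0.427 to 0.26 for cdkn1a, when each library was left out in turn. Of the 70 genes taken by the naming rule or as lookup genes, 23 passed in DESeq2, against 1.47% of all tested genes. That count includes hmox1, which passed the filter on low counts only through the 6.0 months fish and is not read as tested. The rule takes members that are apart and change most, so a high share follows from the choice and is not a result. Genes chosen after their values were seen are not among the 70. The replicate block with only the 6 libraries passed 3 of the 70 (mbpb, cd59 and plp1b) and changed no other call among them.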
